A study of Rattus norvegicus with 2 samples.

Results

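The genes described here are 10 members of the BCL2 family, measured in cultured rat cortical neurons after a knockdown of Ythdf3, which encodes a reader of the m6A methyl mark on messenger RNA. They were chosen by gene symbol as 4 pro-survival genes (Bcl2, Bcl2l1, Bcl2l2 and Mcl1), 3 pore-forming genes (Bax, Bak1 and Bok) and 3 BH3-only genes (Bcl2l11, Pmaip1 and Bbc3). All 10 were found among the 21224 gene rows of the deposited table, each on 1 row. All 10 had a mean of at least 1 FPKM (reads scaled by gene length and by the total of the library), the minimum for the 13172 genes compared. The neurons came from rat embryos at E18. One group was treated with a control siRNA (siNC), an siRNA being a small interfering RNA that silences a gene by its sequence, and the other with an siRNA against Ythdf3 (siYthdf3), with 1 library each, and the title of the study names hypoxic-ischemic injury, though no label names a hypoxic sample. The strain, the number of embryos pooled, the siRNA sequence and dose, and the time after transfection are not stated by the labels.

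With 1 library per group there is no replicate check on any difference below and no p-value is given. Intervals are exact 95% intervals from the reads behind each value, and cover counting error only. A gene was counted as apart when its level differed by at least 1.5-fold on the scale of log2(FPKM + 0.5), a scale on which low genes differ by less than their FPKM do. Of the 13172 genes compared, 2.41% were at least 1.5-fold higher in siYthdf3 and 3.95% at least 1.5-fold lower.

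BCL2 family proteins decide whether the outer membrane of the mitochondrion stays intact. Pro-survival members hold the pore-forming members in check, and BH3-only proteins, made or released under stress, bind pro-survival members or activate the pore formers directly. Once BAX or BAK opens the membrane, cytochrome c escapes and caspases are activated. Developing neurons depend on this pathway when surplus cells are removed, and it takes part in neuronal death after a lack of oxygen and blood flow.

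The reads assigned to genes numbered 15392218 in siNC and 22586543 in siYthdf3. The targeted gene, Ythdf3, was at 9.38 FPKM in siNC and 6.93 FPKM in siYthdf3, a ratio of 0.739 (interval 0.675 to 0.809), which is less than 1.5-fold lower. Neuronal markers were present in both libraries, with a summed level of 1014 FPKM over 11 markers in siNC and 1167 FPKM in siYthdf3. Markers of cycling cells summed to 289.9 FPKM in siNC and 151 FPKM in siYthdf3 over 7 genes, all 7 at least 1.5-fold lower. Progenitor markers summed to 2039 FPKM and 1378 FPKM over 8 genes, of which 3 were at least 1.5-fold lower, and no marker of either list was at 0. The 7 astrocyte markers went both ways, with a median log2 ratio of -0.04. They summed to 159 FPKM and 225 FPKM, of which Gfap alone was 68.2 FPKM and 141 FPKM, while Gja1 and S100b had ratios of 0.606 and 0.667. The 7 oligodendrocyte lineage markers summed to 31.1 FPKM and 18.7 FPKM, and the 6 microglia markers to 7.55 FPKM and 3.60 FPKM, with Cx3cr1 at 0 in siYthdf3. The 5 pericyte, fibroblast and meningeal markers found summed to 5.88 FPKM and 3.88 FPKM, with Lum at 0 in siNC, and none of the 4 endothelial markers reached a mean of 1 FPKM. Levels of cell type markers thus differed between the libraries. Their part in the member values below was not tested, and fewer cells of a type cannot be told apart from less RNA per cell.

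Among the 10 members, Pmaip1 was the only one at least 1.5-fold higher in siYthdf3 and Bok the only one at least 1.5-fold lower. None was 2-fold apart on the log2(FPKM + 0.5) scale, where 0.706% of all genes compared were at least 2-fold higher and 0.896% at least 2-fold lower. The median log2 ratio over the 10 members was 0.00, and over all genes compared it was -0.01, with quartiles of -0.17 and 0.14. The counting interval lay above 1 for 2 members, Pmaip1 and Bcl2l1, where 20% of all genes compared had such an interval. It lay below 1 for 3 members, Mcl1, Bcl2l2 and Bok, against 22.2% of all genes. Members with such intervals were thus about as common as genes with them in the whole table, and what follows describes single genes.

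**Figure D1:**
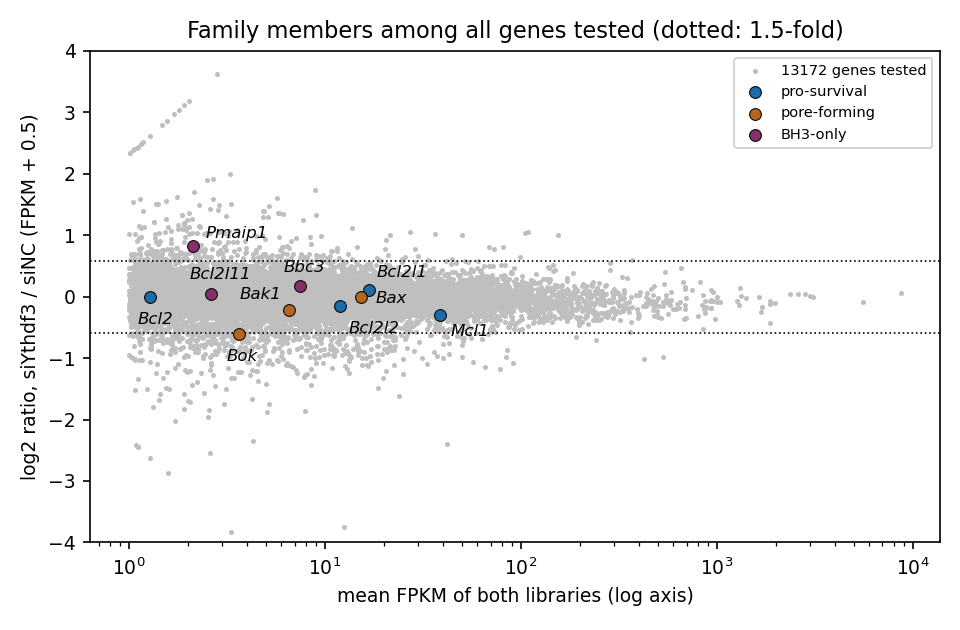
The log2 ratio of siYthdf3 over siNC on the log2(FPKM + 0.5) scale (vertical) is plotted against the mean FPKM of both libraries (horizontal, log axis) for the 13172 genes compared, in grey, and the 10 family members, coloured by role. Pmaip1 at 0.82 and Bok at -0.61 lie beyond the dotted lines that mark 1.5-fold, and the other 8 members lie between them.

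Levels in siNC spanned from 1.28 FPKM for Bcl2 to 42.6 FPKM for Mcl1. After Mcl1, the order in siNC was Bcl2l1 at 16.03 FPKM, Bax at 15.3, Bcl2l2 at 12.6, Bak1 at 7.11, Bbc3 at 7.04, Bok at 4.53, Bcl2l11 at 2.57 and Pmaip1 at 1.40 FPKM. Neighbours that did not differ beyond counting error in siNC were Bcl2l1 and Bax, Bak1 and Bbc3, and Pmaip1 and Bcl2. In siYthdf3 the 4 highest genes stood in the same order. Bbc3 stood above Bak1 there beyond counting error (level ratio 1.31, interval 1.12 to 1.54). Pmaip1 moved from the ninth place to the seventh there, but its level did not differ from that of Bok beyond counting error (level ratio 1.02, interval 0.791 to 1.32), nor did that of Bok from Bcl2l11. Mcl1 was thus the most abundant of the 10 members in both libraries, and Bcl2 had the lowest value in both, not apart from Pmaip1 in siNC.

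**Figure D2:**
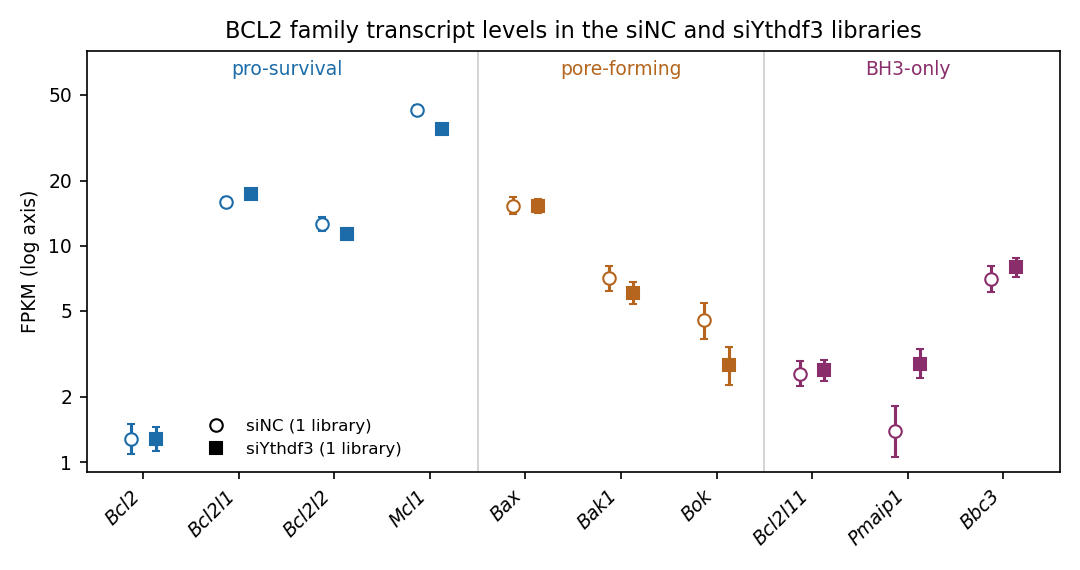
FPKM (log axis) of each family member in the siNC library (open circles) and the siYthdf3 library (filled squares), with exact 95% Poisson intervals that cover counting error only. The intervals of the libraries lie apart for Mcl1, Bok and Pmaip1 and overlap for the other 7 members.

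Mcl1 (ENSRNOG00000063678, chromosome 2, 183219220 to 183222303, plus strand) encodes a short-lived pro-survival protein on which neural progenitors and newborn neurons depend. Member coordinates are the authors', and neither the labels nor the file names their genome build. Mcl1 was at 42.6 FPKM in siNC (1380 reads) and 34.6 FPKM in siYthdf3 (1644 reads). Its ratio was 0.812 (interval 0.755 to 0.873), and its log2 ratio of -0.30 was higher than that of 13.1% of the genes compared. The difference of Mcl1 was the largest of the 4 pro-survival members and was less than 1.5-fold.

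Bcl2l1 (ENSRNOG00000007946, chromosome 3, 141253523 to 141303479, minus strand) encodes BCL-xL, the main pro-survival member in mature neurons. It was at 16.03 FPKM in siNC and 17.3 FPKM in siYthdf3, a ratio of 1.08 (interval 1.01 to 1.15) on 1509 and 2395 reads. Bcl2l1 was the 1 pro-survival member with an interval above 1. That interval included 1 at the 99% level (0.993 to 1.18) and after the siYthdf3 reads were thinned to the siNC depth (0.984 to 1.13). Here and below, thinning was 1 random draw of the reads. Because it discards reads, thinning tends to widen intervals and adds no evidence beyond the full-depth interval.

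Bcl2l2 (ENSRNOG00000015732, chromosome 15, 28356807 to 28361624, plus strand) encodes BCL-w, a pro-survival protein with a role in axons. It was at 12.6 FPKM in siNC and 11.3 FPKM in siYthdf3, a ratio of 0.898 (interval 0.814 to 0.991) on 715 and 942 reads. The interval of Bcl2l2 included 1 after rescaling to TPM (0.842 to 1.03), at the 99% level and after thinning. Bcl2 (ENSRNOG00000067693, chromosome 13, 22684989 to 22853743, minus strand), the founding member, was at 1.28 FPKM in both libraries, from 158 and 232 reads. Its ratio was 1.00 (interval 0.814 to 1.23), so counting error alone leaves room for a ratio anywhere in that range.

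The pore-forming genes were level or lower in siYthdf3. Bax (ENSRNOG00000020876, chromosome 1, 95938808 to 95945368, minus strand), the main pore former in neuronal apoptosis, was at 15.3 FPKM in both libraries, from 469 and 687 reads. Its ratio was 0.998 (interval 0.886 to 1.13). Its row overlaps that of Ftl1 on the same strand by 918 bases, and no label says how reads in such overlaps were assigned. The Ftl1 row was at 37.5 FPKM in siNC (1393 reads) and 28.8 FPKM in siYthdf3 (1568 reads). Its part in the Bax values was not tested. Bak1 (ENSRNOG00000000485, chromosome 20, 5100480 to 5109264, minus strand) encodes BAK, a pore former that sits on mitochondria, and its full-length form is known to be scarce in neurons. Bak1 was at 7.11 FPKM in siNC and 6.06 FPKM in siYthdf3, a ratio of 0.853 (interval 0.714 to 1.02) on 227 and 284 reads, and this interval includes 1. All 8785 bases of the Bak1 row overlap the row of Ggnbp1 on the opposite strand, which held 15 and 26 reads.

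Bok (ENSRNOG00000018214, chromosome 9, 94223389 to 94234476, plus strand) encodes a BAX relative found largely on the endoplasmic reticulum, where it binds inositol trisphosphate receptors. It was at 4.53 FPKM in siNC (107 reads) and 2.80 FPKM in siYthdf3 (97 reads). The ratio was 0.618 (interval 0.464 to 0.821), or 1.62-fold lower, and the log2 ratio of -0.61 was higher than that of 3.64% of the genes compared. Bok had the lowest ratio of the 10 members and rests on the fewest reads of any member, 204 over both libraries. With a pseudocount of 1 FPKM it no longer reached 1.5-fold, at -0.54. The receptor genes Itpr1, Itpr2 and Itpr3 were at log2 ratios of 0.28, 0.07 and 0.04. The interval of the Itpr1 ratio was 1.15 to 1.30, and those of Itpr2 and Itpr3 include 1. Itpr3, with a mean of 0.53 FPKM, was under the minimum.

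The BH3-only genes were level or higher in siYthdf3. Pmaip1 (ENSRNOG00000018770, chromosome 18, 59986017 to 59992429, plus strand) encodes NOXA, a BH3-only protein that binds MCL1 and promotes its breakdown, and whose gene is a target of the integrated stress response. Pmaip1 was at 1.40 FPKM in siNC (57 reads) and 2.86 FPKM in siYthdf3 (171 reads). The FPKM ratio was 2.04 (interval 1.51 to 2.81), and the log2 ratio with the pseudocount was 0.82, and 131 of the 13172 genes compared had a higher one. Pmaip1 had the highest ratio of the 10 members and was among the least abundant of them in siNC.

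Bbc3 (ENSRNOG00000062473, chromosome 1, 77014543 to 77022509, plus strand) encodes PUMA, which binds all pro-survival members. It was at 7.04 FPKM in siNC and 7.95 FPKM in siYthdf3, a ratio of 1.13 (interval 0.95 to 1.35) on 211 and 350 reads. Bcl2l11 (ENSRNOG00000016551, chromosome 3, 115366646 to 115401099, plus strand) encodes BIM, which neurons induce when trophic support is withdrawn. It was at 2.57 FPKM in siNC and 2.66 FPKM in siYthdf3, a ratio of 1.03 (interval 0.870 to 1.23) on 220 and 334 reads. Both intervals include 1, so among the 3 BH3-only members the difference beyond counting error was that of Pmaip1.

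**Figure D3:**
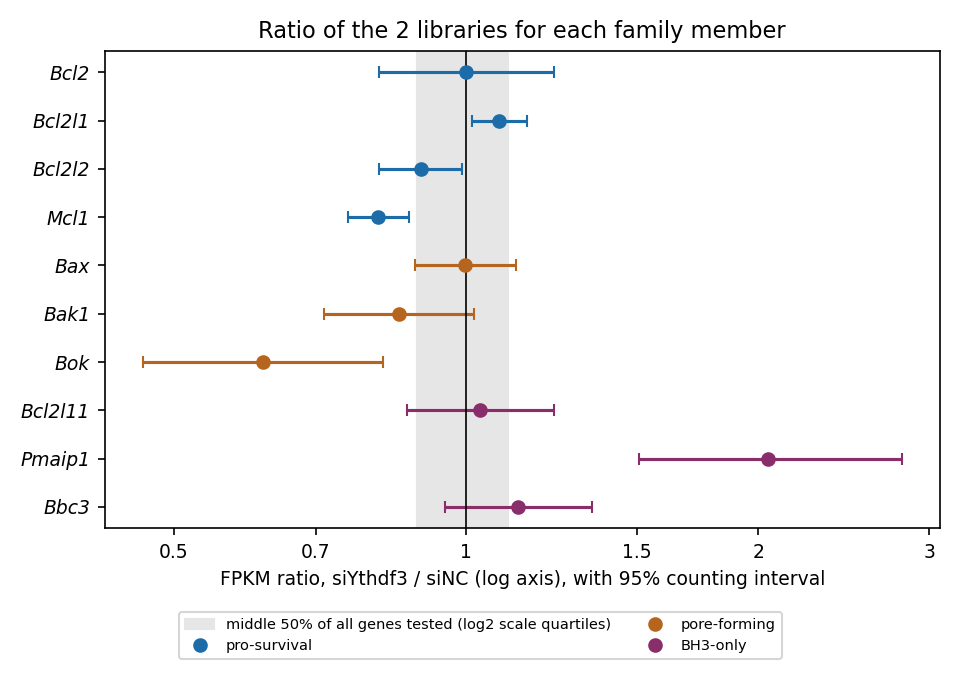
FPKM ratio of siYthdf3 over siNC (horizontal, log axis) for each member, with the exact 95% counting interval as a bar and colour by role. The grey band spans the quartiles of the log2 ratio over all genes compared, and the intervals of Mcl1, Bok and Pmaip1 lie wholly outside it.

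Promoter windows of 300 bases ran from 250 before a transcription start to 50 after it. They were matched by symbol in a RefSeq table of the GRCr8 assembly for 7 of the 10 members. Bcl2l1 had 4 windows and each of the others found had 1. Bax, Bok and Bbc3 had no window, so no motif was searched for in these genes. The 250 bases upstream of the start are shown for Pmaip1, which had the highest ratio, and for Mcl1, the most abundant member and the gene of the partner that NOXA binds. The Pmaip1 run is chr18:62255720-62255969 and the Mcl1 run is chr2:185907918-185908167, both on the plus strand of GRCr8. Capitals mark the core of the cAMP response element, ACGTCA, and the GC box, GGGCGG, each searched on both strands, so that a match on the other strand reads TGACGT or CCGCCC.
Pmaip1: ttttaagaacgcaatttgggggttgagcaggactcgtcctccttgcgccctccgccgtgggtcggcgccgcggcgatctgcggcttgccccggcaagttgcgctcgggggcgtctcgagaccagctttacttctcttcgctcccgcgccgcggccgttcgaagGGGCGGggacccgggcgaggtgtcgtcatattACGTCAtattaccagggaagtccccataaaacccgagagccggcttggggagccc
Mcl1: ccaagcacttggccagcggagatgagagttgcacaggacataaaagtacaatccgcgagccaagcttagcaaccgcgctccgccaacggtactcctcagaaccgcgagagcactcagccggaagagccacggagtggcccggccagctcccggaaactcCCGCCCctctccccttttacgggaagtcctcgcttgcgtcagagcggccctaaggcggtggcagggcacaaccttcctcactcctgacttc

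In the Pmaip1 run the ACGTCA core begins 55 bases upstream of the start and the GC box 87 bases upstream. Of the 10 member windows, that of Pmaip1 alone held ACGTCA, and 7.94% of all 33469 windows in the table did. The motif was chosen after the sequence was read. The GC box was in 6 of the 10 member windows, 1 of them among the 4 of Bcl2l1, and in 33.1% of all windows. The E-box CACGTG was in none of the member windows and in 6.42% of all windows. A half-site pattern for the factor p53 was also in none of the member windows, which do not cover Bax, Bok or Bbc3. It was in 7.98% of all windows. The TATA element TATAAA was in the Bcl2 window alone, beginning 109 bases upstream of the start, and in 14.2% of all windows. A match is only a match of letters, and binding was not measured.

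Summed by role, pro-survival transcripts were at 72.5 FPKM in siNC and 64.5 FPKM in siYthdf3, with counting SDs of 1.31 and 0.998 FPKM and a ratio of 0.890 (counting SD 0.0212). Mcl1 alone went from 42.6 to 34.6 FPKM. Pore-forming transcripts summed to 27.0 FPKM in siNC and 24.2 FPKM in siYthdf3, a ratio of 0.896 (counting SD 0.0420). Bok alone went from 4.53 to 2.80 FPKM. BH3-only transcripts summed to 11.0 FPKM and 13.5 FPKM, a ratio of 1.22 (counting SD 0.0759). Pmaip1 alone went from 1.40 to 2.86 FPKM. The other pore-forming and BH3-only members had ratios whose intervals include 1. The median log2 ratios were -0.07 for the pro-survival genes, -0.21 for the pore-forming genes and 0.17 for the BH3-only genes, each over 3 or 4 genes. The pore-forming median is the value of Bak1 and the BH3-only median that of Bbc3, and the intervals of both genes include 1.

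A ratio of a death-promoting to a pro-survival gene within each library does not depend on how libraries are scaled. For each of 24 such pairs, 6 death-promoting by 4 pro-survival genes, the level ratio in siYthdf3 was divided by that in siNC, with an exact conditional 95% interval of the 4 read numbers. The pairs share genes and are not independent. The interval lay above 1 for 8 pairs, below 1 for 4 and included 1 for 12.

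Pmaip1 was higher relative to all 4 pro-survival genes. Per Mcl1, its level went from 0.0328 in siNC to 0.0826 in siYthdf3, a change of 2.52-fold (interval 1.84 to 3.49). Per Bcl2l1 the change was 1.89-fold (interval 1.38 to 2.62). Bbc3 was higher per Mcl1, by 1.39-fold (interval 1.15 to 1.68), and per Bcl2l2, by 1.26-fold (interval 1.03 to 1.54). The intervals of Bbc3 per Bcl2 and per Bcl2l1 include 1. Bcl2l11 per Mcl1 was 1.27-fold higher (interval 1.06 to 1.54), but this interval included 1 at the 99% level (0.997 to 1.63) and after thinning (0.960 to 1.46).

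The BAX to BCL2 ratio, often used as an index of readiness for apoptosis, did not differ beyond counting error at the transcript level. Bax per Bcl2 was 12.0 in siNC and 11.9 in siYthdf3, a quotient of 0.998 (interval 0.784 to 1.27). Bax per Mcl1 was 1.23-fold higher (interval 1.07 to 1.41). Bok was lower relative to 3 of the 4 pro-survival genes, for example per Bcl2l1 at 0.571 (interval 0.426 to 0.765), and its interval per Mcl1 includes 1 (0.567 to 1.02). After thinning, the quotient of Bok per Mcl1 was 0.686, with an interval below 1 (0.487 to 0.960). Thinning discards reads in 1 random draw, so it adds no evidence beyond the full-depth interval, which includes 1. Bak1 per Bcl2l1 was at 0.788 (interval 0.652 to 0.954). At the 99% level the intervals of Bak1 per Bcl2l1, Bok per Bcl2l2 and Bbc3 per Bcl2l2 included 1. Of the 8 intervals above 1, 4 have Mcl1 as the pro-survival gene, which was itself lower in siYthdf3.

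**Figure D4:**
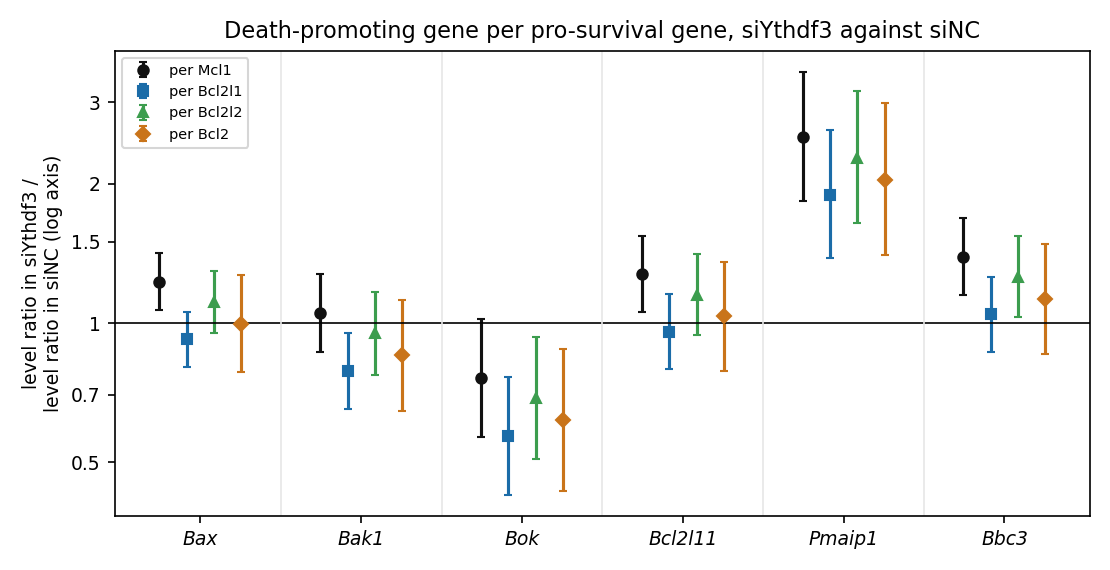
For each death-promoting gene, the level per pro-survival gene in siYthdf3 divided by the same in siNC (vertical, log axis), with exact 95% intervals that cover counting error only. All 4 intervals of Pmaip1 lie above 1, those of Bok lie below 1 except the one per Mcl1, and for Bax the one per Mcl1 lies above 1.

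Further genes of the pathway came from 7 lists written from known roles, with 77 genes at a mean of at least 1 FPKM. Of these 77, 2 were at least 1.5-fold higher in siYthdf3 (2.60%) and 3 at least 1.5-fold lower (3.90%), beside 2.41% and 3.95% of all genes. Their median log2 ratio was 0.04.

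Other relatives of the BCL2 family were less than 1.5-fold apart except for Bcl2a1. Of 13 listed, 12 were in the table and 7 reached the minimum, with a median log2 ratio of -0.09. Bcl2a1, a pro-survival gene of blood cells, was at 4.09 FPKM in siNC and 2.22 FPKM in siYthdf3, a ratio of 0.542 (interval 0.338 to 0.865) on 44 and 35 reads. Of the 3 microglia markers at or above the minimum, Aif1 and Tyrobp had ratios of 0.523 and 0.202, and P2ry12 had one of 1.45 (interval 0.987 to 2.15). Bcl2l12 had a ratio of 0.719 (interval 0.534 to 0.968). Bcl2l13, a mitophagy receptor, was at 31.0 and 27.9 FPKM. Bid, the BH3-only protein that caspase-8 cleaves, was at 6.15 FPKM in siNC and 7.34 FPKM in siYthdf3, a ratio of 1.19 (interval 1.00 to 1.43). Bad, which growth factor signalling inactivates, had a ratio of 1.01 (interval 0.903 to 1.12), and the mitophagy receptors Bnip3 and Bnip3l had ratios of 0.939 and 0.952 with intervals that include 1. Bmf, Bik, Bcl2l10, Bcl2l14 and Bcl2l15 were under the minimum, with at most 50 reads in a library.

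Downstream of the pore, the median log2 ratio of the 11 apoptosome and caspase genes was 0.06, with none 1.5-fold apart on that scale. Cycs, which encodes cytochrome c, was at 70.9 FPKM in siNC and 52.2 FPKM in siYthdf3, a ratio of 0.737 (interval 0.693 to 0.782). Casp8, the initiator of the death receptor pathway, had a ratio of 1.69 (interval 1.13 to 2.58) at low levels of 0.985 and 1.67 FPKM. Casp6 had a ratio of 1.46 (interval 0.923 to 2.35). The initiator Casp9, at 2.56 and 2.80 FPKM, had an interval that includes 1.

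Inhibitors of caspases and their antagonists had a median of 0.07 over 10 genes. Birc5, survivin, which also acts in cell division, was at 23.8 FPKM in siNC and 13.4 FPKM in siYthdf3, a ratio of 0.562 (interval 0.504 to 0.627). All 7 markers of cycling cells were lower in the same library. Diablo, an antagonist released from mitochondria, had a ratio of 0.757 (interval 0.669 to 0.857), and the giant inhibitor gene Birc6 had one of 1.19 (interval 1.13 to 1.24).

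Of the death receptors and adaptors, 6 reached the minimum, with a median of 0.17. Fas, a receptor of the tumour necrosis factor receptor family, was at 4.29 FPKM in siNC and 7.86 FPKM in siYthdf3, a ratio of 1.83 (interval 1.54 to 2.20). Its adaptor Fadd was at 3.54 and 2.25 FPKM, a ratio of 0.637 (interval 0.523 to 0.776), and Ripk1 had a ratio of 1.20 (interval 1.06 to 1.36). The receptor and its adaptor thus differed in opposite directions.

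Regulators of transcription of the family had a median of 0.10 over 16 genes. Mdm2, a ubiquitin ligase gene, had a ratio of 1.22 (interval 1.16 to 1.30). Atf4 and Ddit3, stress response factors that act on BH3-only genes, had ratios of 0.962 and 1.06 with intervals that include 1. Mef2c, a neuronal survival factor, was at a log2 ratio of 0.44. Mybl2, a factor of dividing cells, was at 17.5 and 7.73 FPKM, a log2 ratio of -1.13.

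**Figure D5:**
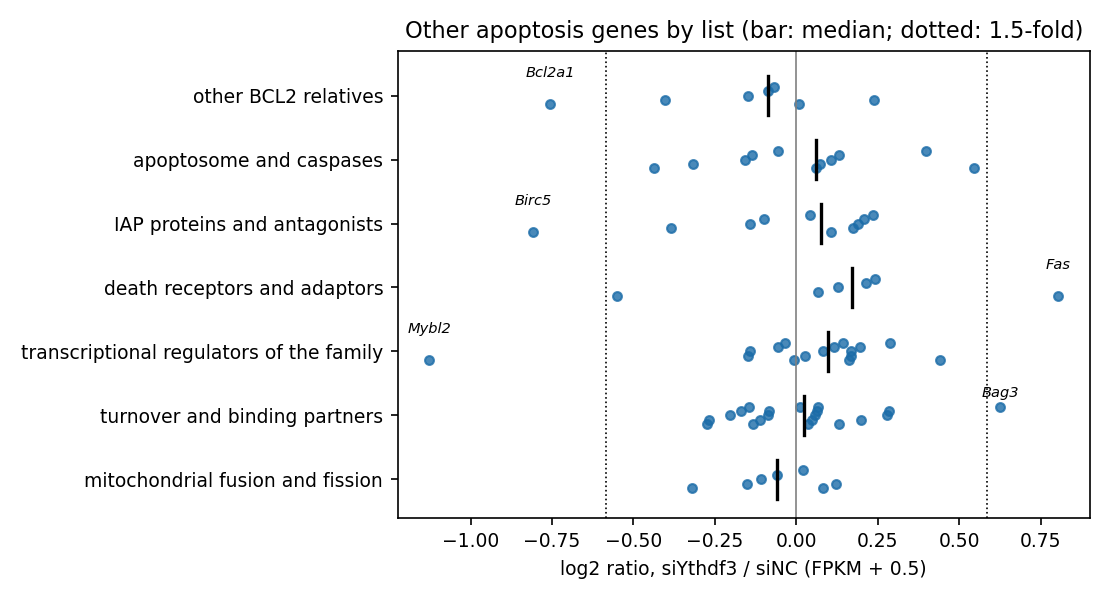
Log2 ratio of siYthdf3 over siNC on the log2(FPKM + 0.5) scale (horizontal) for each gene with a mean of at least 1 FPKM in the 7 lists, with the list median as a black bar. Fas and Bag3 lie above the dotted 1.5-fold line, and Bcl2a1, Birc5 and Mybl2 lie below it.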

How the data were processed

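Messenger RNA was measured in 1 siNC and 1 siYthdf3 library, grouped by sample title. Per the labels' protocols, 1 ug of RNA entered a library kit that tags cDNA with identifiers of 12 random bases, sequenced as paired reads of 150 bases. The authors deposited FPKM values per gene and library. Tools in the submitters' processing notes, where their roles are not said, are STAR 2.7.6a, StringTie 2.1.4, edgeR 3.40.2, fastp 0.23.2, Subread 1.5.1 and featureCounts. Build, annotation, strand setting and collapsing by identifier were not given in the sources used here.

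Multiplying FPKM by length and dividing by the step of each library gave whole reads, within 0.05 read, for 100% of values. Intervals are exact Clopper-Pearson intervals of a gene's share of reads in siYthdf3, converted to an FPKM ratio, and would be too narrow if reads were copies of 1 molecule. A count of 0 allows up to 3 reads, which for a gene of 1 kilobase is 0.195 FPKM (siNC) or 0.133 FPKM (siYthdf3). The members and lists were chosen with earlier results of these data known. All 10 members are named, every BCL2 relative with a row (12 of 13 listed), and up to 3 genes with the largest differences per pathway list, plus any 2-fold apart. Itpr2, Itpr3, Casp9, Atf4, Ddit3, Aif1, Tyrobp, P2ry12, Gfap, Gja1 and S100b were named after their values were seen. Some genes of the lists are not reported here. No genes of like pattern are named, because 2 libraries give 1 ratio per gene. Protein sequences were not used here. The calculation was tested on data simulated with counting error alone, which cannot test variation between libraries. Alternatives were other pseudocounts, filters, scalings, a length trend, thinning by 1 random draw and 99% intervals. Calculations used Python 3.11.15, numpy 2.4.6, pandas 2.3.3, scipy 1.17.1 and matplotlib 3.10.9.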

Additional observations from a re-analysis of the deposited data

How the results depend on the processing

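Under 9 alternatives (8 for members that a filter at 5 FPKM removes) the log2 ratio of each member stayed within its counting interval. Among these, the filters cannot change the log2 ratio of a gene, and centring on the median shifts all genes alike. Rescaling to TPM, and rescaling without mitochondrially encoded and top 20 genes, multiply every gene of a library by the same factor. Apart from the effect of the pseudocount, these rescalings also shift all genes alike. Pmaip1 ranged from 0.69 to 0.99, Bok from -0.73 to -0.54 and Mcl1 from -0.30 to -0.25. Bax and Bcl2 changed sign under 3 alternatives each and Bcl2l11 under 1, so no direction is given for these. The count of members at least 1.5-fold lower was 0 with a pseudocount of 1 FPKM. With a filter at a mean of 5 FPKM, 6 members remained, and 0 were 1.5-fold higher and 0 lower, since Pmaip1 and Bok lie under that filter. Members with an interval above 1 numbered 1, Pmaip1, at the 99% level and 1, again Pmaip1, after thinning. Pairs with an interval above 1 numbered 6 at the 99% level and 7 after thinning, and those with an interval below 1 numbered 2, both of Bok, and 5. The role medians ranged from -0.15 to -0.03 for pro-survival, from -0.23 to -0.11 for pore-forming and from 0.16 to 0.22 for BH3-only genes. The ends at -0.15 and -0.11 come from the filter at 5 FPKM, which leaves fewer genes per role. Under that filter the BH3-only median is Bbc3 alone. Low read numbers limit Bok (204 reads over both libraries) and Pmaip1 (228). No paired analysis was possible because each group has 1 library and the labels give no replicate numbers.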

Other observations

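Proteins that bind or turn over BCL2 family members were examined as a list, of which 20 genes passed the minimum level, and their median log2 ratio was 0.02. Bag3, a co-chaperone that stabilises pro-survival members, was at 7.95 FPKM in siNC and 12.5 FPKM in siYthdf3, a ratio of 1.58 (interval 1.38 to 1.81), the 1 gene of this list at least 1.5-fold apart. Btrc, a ubiquitin ligase subunit that acts on MCL1 and BIM among other targets, had a ratio of 1.23 (interval 1.12 to 1.35). Of the other MCL1 regulators, the ligase gene Huwe1 had a ratio of 1.10 (interval 1.07 to 1.12), the deubiquitinase gene Usp9x one of 1.15 (interval 1.12 to 1.18) and the ligase subunit gene Fbxw7 one of 0.900 (interval 0.822 to 0.985). The ligase gene Marchf5 had a ratio of 1.05 (interval 0.933 to 1.17), and Tpt1, whose product binds MCL1, one of 0.830 (interval 0.805 to 0.856). These last 5 genes were chosen after their values were seen.

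The median log2 ratio of 7 genes of mitochondrial fusion and fission was -0.06, and none was 1.5-fold apart. Mtch2, which encodes the receptor for truncated BID on mitochondria, was at 16.2 FPKM in siNC and 12.8 FPKM in siYthdf3, a ratio of 0.794 (interval 0.715 to 0.883). Mff, an adaptor of the fission machinery, had a ratio of 0.898 (interval 0.831 to 0.970), and the fusion gene Mfn1 one of 1.09 (interval 1.03 to 1.15).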
